A study of Heterocephalus glaber and Cavia porcellus and Spalacopus cyanus with 7 samples.

Results

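The genes described here are 9 components of the PI3K, FOXO3 and mTOR system that holds ovarian follicles dormant or lets them grow. They were taken as listed symbols and matched without regard to case in oocyte RNA-seq count tables of the naked mole-rat and the guinea pig. All 9 had an entry in both species, among 26623 naked mole-rat and 25603 guinea pig entries, of which 15082 shared a symbol. Foxo3, Tsc1, Tsc2, Cdkn1b and Stk11 are grouped as brakes on primordial follicle growth, and Akt1, Pik3ca, Mtor and Rptor as activators.

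The series measured untreated oocytes of 3 hystricognath rodents. The guinea pig (animals 6 to 9 months old) is represented by 1 library made from the merged oocytes of 3 females. The naked mole-rat (1 to 8 years old) is represented by 5 libraries of 1 female each, and the age of each female was not stated. The titles of naked mole-rat replicates 4 and 5 carry the letter O and those of replicates 2 and 3 the letter Y, and replicate 1, deposited in a table of its own, carries none. Neither the labels nor the methods explain the letters. No strain, genotype or treatment is given for either species beyond natural conditions for the naked mole-rat. A coruro library was not used here. All oocytes were fully grown or in late growth, with cumulus cells stripped by pipetting, so no dormant primordial follicle oocyte was sampled.

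A primordial follicle is an oocyte enclosed by flat granulosa cells, and most stay dormant for long periods. In the mouse, growth begins when signalling through receptors such as KIT activates PI3K in the oocyte, which turns on AKT. AKT then drives the transcription factor FOXO3 out of the nucleus and inhibits the TSC1 and TSC2 complex, which otherwise restrains the kinase complex mTORC1. Mice that lack Foxo3, Tsc1, Tsc2 or Cdkn1b in their oocytes or ovaries activate their follicle pool too early. These proteins are controlled largely by phosphorylation and by their place in the cell, neither of which RNA-seq measures.

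Levels are given as CPM, the count of a gene divided by all gene counts of its library and scaled to 1000000. Totals were 24515642 counts in the guinea pig library and 13512223 to 29561451 in the naked mole-rat libraries. Transcript lengths were not used, so CPM values of different genes do not rank their abundance, and levels are compared between libraries. Where genes are combined below, as ratios, sums or means, their lengths are mixed in. In bulk oocyte RNA, fewer cells of a type and less RNA per cell cannot be told apart. Of 10 oocyte markers, such as Gdf9 and Zp3, the summed level was 6679 CPM in guinea pig, against 3330 CPM in naked mole-rat replicate 1 and 7081 to 8646 CPM in replicates 2 to 5. The 8 granulosa cell markers with an entry, such as Amh and Inha, summed to 422 CPM in guinea pig, against 3749 CPM in naked mole-rat replicate 1, 842 CPM in replicate 5 and 378 to 468 CPM in replicates 2 to 4. All 8 were highest in replicate 1 among the naked mole-rat libraries, and none was at 0 in any library. Nr5a2 gave most of the sum in guinea pig, at 221 CPM, and in naked mole-rat replicates 2 to 4, at 248 to 292 CPM. It varied little between the naked mole-rat libraries, at 314 CPM in replicate 1 and 309 CPM in replicate 5. The sum over 7 stroma markers was 378 CPM in guinea pig, against 201 CPM in naked mole-rat replicate 1 and 4.47 to 35.0 CPM in replicates 2 to 5. The sum over 6 endothelial markers was 489 CPM in guinea pig, most of it from the receptor Tek, against 47.6 to 173 CPM in naked mole-rat. The 6 immune markers summed to 10.6 CPM in guinea pig, against 103 CPM in naked mole-rat replicate 1 and 3.67 to 22.0 CPM in replicates 2 to 5. No stroma, endothelial or immune marker was at 0 in guinea pig, whereas 1 to 4 of the stroma markers were at 0 in every naked mole-rat library. Replicate 1 therefore stood apart from the other naked mole-rat libraries, and results that rest on it are given with and without it.

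Foxo3, the transcription factor whose nuclear presence keeps the mouse primordial oocyte dormant, was lower in guinea pig than in every naked mole-rat library. It was measured at 138 CPM in guinea pig (95% Poisson interval 134 to 143), against 231, 405, 498, 351 and 407 CPM in naked mole-rat replicates 1 to 5. The groups did not overlap, and the lowest naked mole-rat value belonged to replicate 1. The guinea pig level was 1.67 times below that library and 2.74 times below the naked mole-rat mean of 378 ± 97.8 CPM (SD, n = 5), a log2 difference of -1.45. Intervals here cover counting error only, and the guinea pig value has no replicate check. An exact two-sided permutation test of 1 library against 5 cannot reach p = 0.05, so the contrast between species is described by whether the guinea pig value lay outside the naked mole-rat range.

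Read against all genes, 29.1% of 10279 matched symbols with at least 100 counts lay below every naked mole-rat library in guinea pig, and 37.2% lay above every one. At least 2-fold outside that range lay 15.1% below and 18.5% above. Among the 9 members, 3 were lower (33.3%), 1 was higher (11.1%) and 5 lay inside the range. None was at least 2-fold lower and 1 was at least 2-fold higher. A gene could pass the minimum of 100 counts through 1 species alone, which favours calls in which that species is the higher one. All 9 members had at least 100 counts in every library, and among the 6992 genes that did, 33.4% were lower and 31.6% higher in guinea pig, with 13.6% lower and 11.5% higher by at least 2-fold. The members' median log2 difference was -0.58, beside -0.14 over these 6992 genes, whose quartiles were -1.09 and 0.80. The shares of lower members and of lower genes were close.

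**Figure D1:**
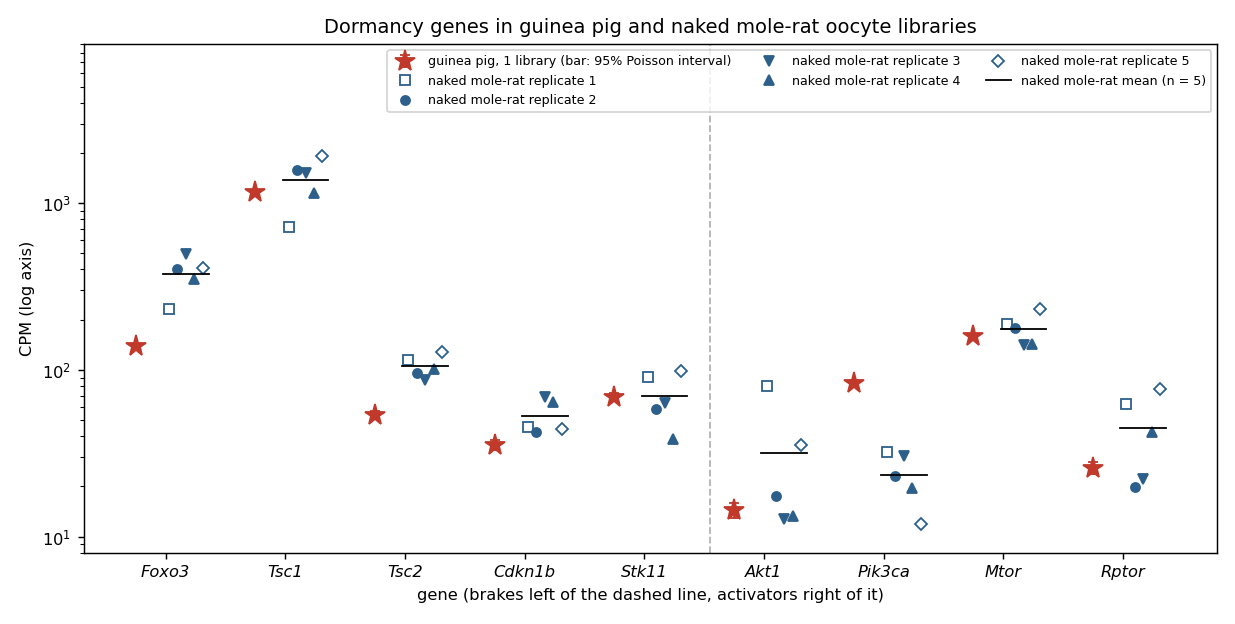
Level of each dormancy gene in CPM on a log axis, with brakes left of the dashed line and activators right of it. The star is the guinea pig library with its 95% Poisson interval, the blue symbols are naked mole-rat replicates 1 to 5 and the line is their mean (n = 5). The star lies below all blue symbols for Foxo3, Tsc2 and Cdkn1b and above all of them for Pik3ca, at 83.7 CPM against at most 32.3 CPM.

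TSC1 and TSC2 form 1 complex that switches off RHEB, the GTPase that activates mTORC1, and their transcripts did not differ alike between species. Tsc1, which encodes the partner that stabilises TSC2, was measured at 1174 CPM in guinea pig (1160 to 1187), against 715, 1571, 1506, 1154 and 1915 CPM in naked mole-rat replicates 1 to 5. The guinea pig value lay inside the naked mole-rat range, whose mean was 1372 ± 456 CPM (SD, n = 5). Tsc2, which encodes the GTPase-activating subunit, was measured at 53.8 CPM in guinea pig (50.9 to 56.8), against 114, 95.2, 87.3, 101 and 128 CPM in naked mole-rat replicates 1 to 5. Tsc2 did not overlap between species, being 1.62 times below the lowest naked mole-rat library in guinea pig. Its log2 difference from the naked mole-rat mean of 105 ± 15.9 CPM (SD, n = 5) was -0.96. It was also the member with the least spread over the naked mole-rat females, with a coefficient of variation of 15.2%.

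The ratio of the counts of both subunits does not depend on how a library is scaled. The Tsc1 to Tsc2 count ratio was 21.8 in guinea pig (95% interval from exact binomial limits 20.6 to 23.1), against 6.29, 16.5, 17.2, 11.5 and 15.0 in naked mole-rat replicates 1 to 5. The guinea pig ratio lay above all 5, and replicate 1 gave the lowest. Ratios between genes mix transcript lengths with abundance, and the lengths may differ between the annotations of the 2 species. These and the other gene pairs below were chosen after their values were seen.

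Cdkn1b encodes p27, a cyclin-dependent kinase inhibitor that restrains follicle growth in the mouse. It was measured at 35.3 CPM in guinea pig (33.0 to 37.7), against 45.4, 42.6, 68.8, 64.3 and 43.9 CPM in naked mole-rat replicates 1 to 5. Guinea pig was again below every naked mole-rat library, although by only 1.21 times at the nearest one, replicate 2, and its log2 difference from the mean was -0.59. Stk11 encodes LKB1, the kinase that activates AMPK and through it restrains mTORC1. It was measured at 69.2 CPM in guinea pig (66.0 to 72.6), against 91.0, 58.1, 63.4, 38.7 and 98.5 CPM in naked mole-rat replicates 1 to 5. The guinea pig value fell in the middle of this range, with a log2 difference of -0.01 from the mean of 69.9 ± 24.6 CPM (SD, n = 5). Replicates 1 and 5 were the highest naked mole-rat libraries for Stk11, and without both of them guinea pig lay above the remaining 3, at a log2 difference of 0.38.

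Pik3ca, which encodes the p110-alpha catalytic subunit of PI3K, showed the widest separation between species of the 9 genes and was the only one above the naked mole-rat range. It was measured at 83.7 CPM in guinea pig (80.1 to 87.4), against 32.3, 23.2, 30.5, 19.5 and 11.8 CPM in naked mole-rat replicates 1 to 5. Guinea pig was 2.59 times above the highest of these and 3.56 times above their mean of 23.5 ± 8.33 CPM (SD, n = 5). Replicate 5 had the lowest level of Pik3ca among the naked mole-rat libraries and replicate 1 the highest.

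Akt1 encodes the AKT kinase that phosphorylates FOXO3 and TSC2, and it was the most variable member between females. It was measured at 14.4 CPM in guinea pig (12.9 to 15.9), against 79.9, 17.4, 12.7, 13.2 and 35.5 CPM in naked mole-rat replicates 1 to 5. Guinea pig lay inside this range, and replicate 1 was 4.05 times the mean of the other 4. The naked mole-rat mean of 31.8 ± 28.5 CPM (SD, n = 5) became 19.7 CPM without replicate 1 and 14.5 CPM without replicates 1 and 5. The granulosa marker sum was also highest in replicates 1 and 5. Fshr was the exception among its genes, at 10.3 CPM in replicate 5, against 21.7 and 16.0 CPM in replicates 3 and 4. The part of these markers in the Akt1 level was not tested. Akt2, which encodes a second AKT kinase, was measured at 347 CPM in guinea pig, against 83.8 ± 23.8 CPM in naked mole-rat (SD, n = 5), 2.93 times above the highest library. The Akt2 to Akt1 count ratio was 24.2 in guinea pig (21.7 to 27.0), against 1.06, 3.86, 4.45, 6.93 and 3.34 in naked mole-rat replicates 1 to 5.

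The remaining activators belong to mTORC1, the kinase complex that promotes protein synthesis and oocyte growth. Mtor, which encodes its kinase, was measured at 159 CPM in guinea pig (155 to 165), against 189, 177, 140, 144 and 233 CPM in naked mole-rat replicates 1 to 5. Rptor, which encodes the scaffold RAPTOR that recruits substrates, was measured at 25.8 CPM in guinea pig (23.8 to 27.9), against 62.8, 19.9, 22.2, 42.3 and 77.0 CPM in naked mole-rat replicates 1 to 5. Neither gene left the naked mole-rat range in guinea pig. The Rptor to Mtor count ratio was 0.162 in guinea pig (0.148 to 0.176), against 0.331, 0.112, 0.159, 0.294 and 0.331 in naked mole-rat. Replicate 3 lay within the guinea pig interval, replicate 2 below it and replicates 1, 4 and 5 above it.

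Between the naked mole-rat females, the members varied in different ways. Coefficients of variation over the 5 libraries were 89.7% for Akt1 and 55.7% for Rptor, at percentiles 94.4 and 85.5 of 7836 genes with at least 100 counts in every library. For the other 7 members they ran from 15.2% (Tsc2) to 35.5% (Pik3ca), beside a median of 31.7% over these genes. Replicates 1 and 5 were the 2 highest libraries for 5 of the 9 members (55.6%), Tsc2, Stk11, Akt1, Mtor and Rptor, and for 25.3% of the 7836 genes. Replicate 1 was the lowest library for Foxo3 and Tsc1, 2 of 9 members (22.2%), and for 33.0% of the genes. This grouping of libraries was noticed in the values and is a description. The summed granulosa markers moved with it, and their part in it was not tested.

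**Figure D2:**
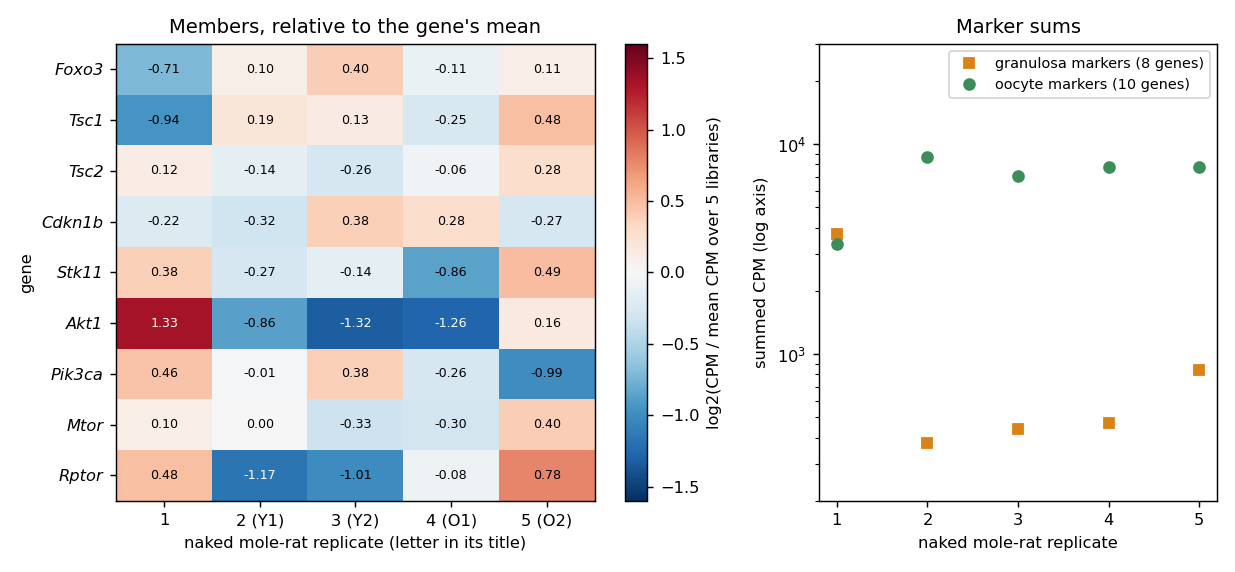
Left, log2 of each member's CPM in the 5 naked mole-rat libraries over its own mean, with blue below and red above the mean, and right, the summed CPM of 8 granulosa and 10 oocyte markers in the same libraries on a log axis. Akt1 and Rptor have their highest cells in replicates 1 and 5, while Foxo3 and Tsc1 have their lowest in replicate 1. The granulosa sum is highest and the oocyte sum lowest in replicate 1.

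Foxo3 and Tsc1 thus resembled each other more than Foxo3 resembled any other member. The root mean square difference of their log2 CPM, each centred on its own mean over the 5 naked mole-rat libraries, was 0.24, which ranked Tsc1 at 662 of 6850 genes with at least 10 CPM in every library. Cdkn1b followed at 0.37, and Akt1 was farthest from Foxo3 at 1.33. The genes closest to Foxo3 were Tada1 at 0.048, Plekhb2 at 0.061 and Ubap1 at 0.064. The order rests on 5 libraries and says nothing about any link between these genes.

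Set against each other in 1 library, activators and Foxo3 gave the following ratios. The Akt1 to Foxo3 count ratio was 0.104 in guinea pig (0.0928 to 0.116), against 0.346, 0.0431, 0.0256, 0.0376 and 0.0870 in naked mole-rat replicates 1 to 5. Guinea pig stood above replicates 2 to 5 and below replicate 1. The Pik3ca to Foxo3 count ratio was 0.605 in guinea pig (0.573 to 0.639), against 0.140, 0.0574, 0.0613, 0.0556 and 0.0291 in naked mole-rat replicates 1 to 5. All naked mole-rat libraries lay below guinea pig for this ratio, and replicate 1 was the nearest.

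Over all members, brakes and activators were summarised as the mean log2 CPM of the 5 brakes minus that of the 4 activators. Like the count ratios, this balance mixes transcript lengths with abundance, and the lengths may differ between the annotations of the 2 species. The balance was 1.30 in guinea pig, against 1.02, 2.31, 2.56, 2.17 and 2.02 in naked mole-rat replicates 1 to 5. Guinea pig lay below replicates 2 to 5 but above replicate 1, and its difference from the naked mole-rat mean of 2.02 ± 0.59 (SD, n = 5) was -0.71. With medians in place of means the balance was 0.58 in guinea pig, against 0.68 to 2.15 in naked mole-rat, so guinea pig then lay below every library. With summed CPM on the log2 scale it was 2.38 in guinea pig, against 1.72 to 3.43 in naked mole-rat, inside the range, and the difference from the mean was -0.46. The difference rested largely on Pik3ca. Without that gene it was -0.11, and with any other single member left out it ran from -1.0 to -0.51.

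**Figure D3:**
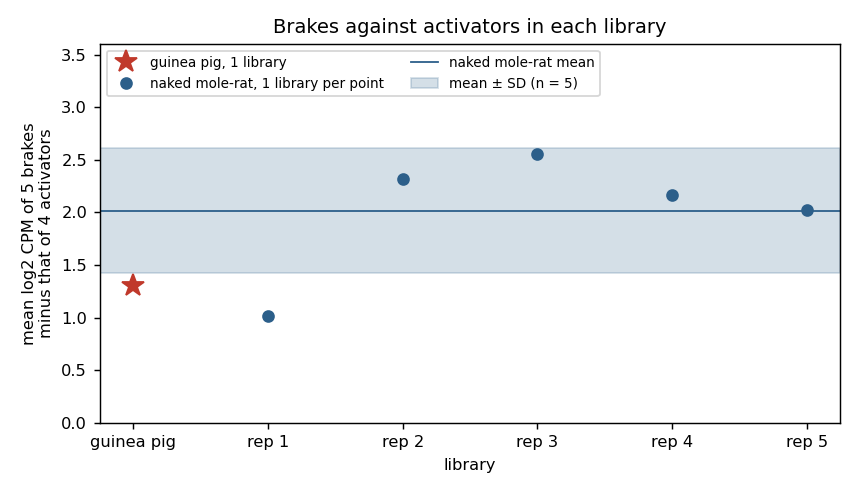
Balance of the dormancy genes in each library, the mean log2 CPM of the brakes minus that of the activators, with the guinea pig library at the left and the naked mole-rat mean ± SD (n = 5) as line and band. Guinea pig at 1.30 and naked mole-rat replicate 1 at 1.02 lie below naked mole-rat replicates 2 to 5, which lie between 2.02 and 2.56.

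The libraries lettered O and Y were compared with edgeR's quasi-likelihood test over 15079 genes, with Benjamini-Hochberg adjustment. No gene passed an adjusted p of 0.05, neither higher in O (0% of genes) nor lower in O (0%), while 707 genes had an unadjusted p under 0.05. DESeq2 called 59 genes on the same libraries, none of them a member. Rptor had the largest difference among the members, at 42.3 and 77.0 CPM in the O libraries, against 19.9 and 22.2 CPM in the Y libraries. Its log2 fold change was 1.36 ± 0.45 (SE, n = 2 each), with an edgeR unadjusted p of 0.0106 and an adjusted p of 1.00. It passed the threshold only when replicate 4 was left out, at an adjusted p of 0.0434 and a log2 fold change of 1.71, with replicate 5 as the single O library. Over its alternatives the adjusted p ranged from 0.0434 to 1.00.

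Pik3ca was measured at 19.5 and 11.8 CPM in the O libraries, against 23.2 and 30.5 CPM in the Y libraries, a log2 fold change of -0.88 ± 0.54 (SE) that did not pass the edgeR test. For Foxo3 the O libraries held 351 and 407 CPM, against 405 and 498 CPM in the Y libraries, which overlap, at a log2 fold change of -0.37 ± 0.30 (SE). Rptor and Tsc2 were higher in both O libraries than in both Y libraries, 2 of 9 members beside 17.5% of 7836 genes, and Pik3ca was lower in both, 1 of 9 beside 14.7%. The log2 fold changes of the other 6 members lay between -0.14 and 0.53, none past the test. Over the alternatives they changed sign for 5 of these 6, ranging from -0.24 to 1.07 for Akt1, from -0.70 to 0.54 for Stk11 and from -0.50 to 0.23 for Cdkn1b. Replicate 5, an O library, also held more granulosa marker RNA than the other lettered libraries, and its part in these values was not tested. The labels do not say whether the letters mark separate conditions, so a difference between them cannot be assigned to a condition. The p-values weigh each difference between O and Y against the spread within letters among these 4 females only.

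The wider pathway was described with 89 further genes in 12 lists, of which 85 had an entry in both species. Of these, 59 held at least 100 counts in every library, 20 did so in guinea pig but not in every naked mole-rat library, and 2, Inpp4b and Inpp5e, in every naked mole-rat library but not in guinea pig. Of the 59, 23 were higher in guinea pig (39.0%) and 16 were lower (27.1%), beside 31.6% and 33.4% of the 6992 genes counted in the same way. At least 2-fold outside the range were 5 higher (8.47%) and 8 lower (13.6%), beside 11.5% and 13.6% of the 6992 genes. Without replicate 1, 26 of the 59 were higher (44.1%) and 20 were lower (33.9%), beside 38% and 37.8% of the 6992 genes. Counts by list below are over the 59, and genes that met the minimum in 1 species only are given as values. Between the O and Y libraries, none of 84 pathway genes tested passed the edgeR threshold and 3 had an unadjusted p under 0.05.

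**Figure D4:**
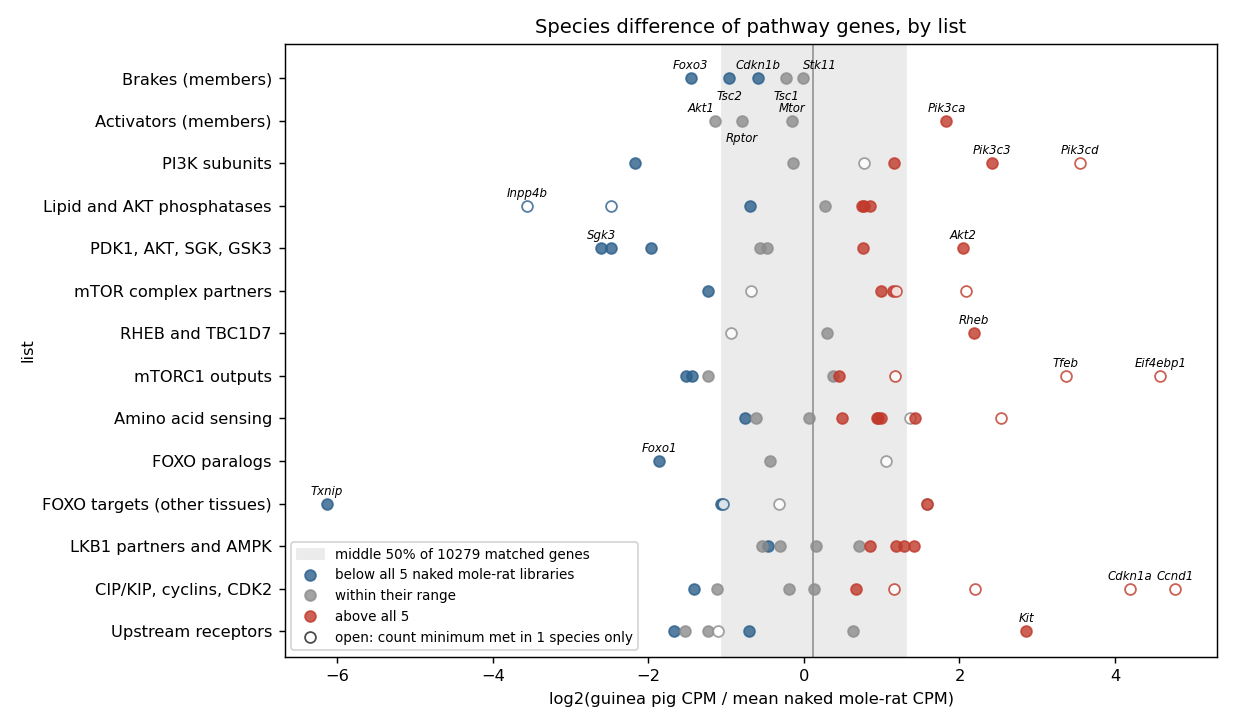
Log2 of the guinea pig CPM over the mean naked mole-rat CPM (n = 5) for each member and each gene of the wider pathway, by list. Open points met the count minimum in 1 species only. Points in blue lie below all 5 naked mole-rat libraries, points in red above all 5 and points in grey within their range, and the shaded band spans the quartiles of 10279 matched genes, from -1.05 to 1.31. Rheb, Akt2, Pik3c3 and Pik3cd lie right of the band and Foxo1, Gsk3b, Sgk3 and Txnip left of it.

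Upstream of the members, Kit was the largest difference among 6 genes for receptors and a receptor substrate. Kit, whose ligand from granulosa cells activates PI3K in the oocyte, was measured at 271 CPM in guinea pig, against 37.3 ± 16.5 CPM in naked mole-rat (SD, n = 5), 5.00 times above the highest library. Bmpr1a, a BMP receptor, was measured at 64.1 CPM in guinea pig, against 204 ± 18.3 CPM in naked mole-rat, 2.77 times below the lowest library. Igf1r, the IGF1 receptor, was measured at 346 CPM in guinea pig, against 567 ± 101 CPM in naked mole-rat. Of the 6, 1 was higher, 2 were lower and 3 lay inside the range, and 2 were higher without replicate 1.

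Among 4 other PI3K subunits, 2 were higher in guinea pig, 1 was lower and 1 lay inside the range. Pik3c3, the class III kinase of autophagy, was measured at 141 CPM in guinea pig, against 26.4 ± 7.53 CPM in naked mole-rat (SD, n = 5). Pik3cd, the p110-delta subunit best known from leukocytes, met the minimum in guinea pig only and was measured there at 61.9 CPM, against 13.2 CPM in naked mole-rat replicate 1 and 0 to 6.63 CPM in replicates 2 to 5. Pik3c2a, a class II kinase, ran the other way, at 102 CPM in guinea pig, against 461 ± 156 CPM in naked mole-rat. Of 5 lipid and AKT phosphatases, 3 were higher and 1 was lower. Phlpp1, which dephosphorylates AKT, was measured at 210 CPM in guinea pig, against 125 ± 31.5 CPM in naked mole-rat. Inpp4b, which removes a phosphate from PI3K products, was measured at 2.57 CPM in guinea pig, against 30.2 ± 4.77 CPM in naked mole-rat. Inpp5e, which like Inpp4b met the minimum in naked mole-rat only and is a further phosphoinositide phosphatase, was measured at 3.71 CPM in guinea pig, against 20.6 ± 8.11 CPM in naked mole-rat.

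Of the 7 kinases between PI3K and its targets, 2 were higher in guinea pig and 3 were lower, and 5 were lower without replicate 1. Sgk3, a relative of AKT, was measured at 29.5 CPM in guinea pig, against 180 ± 70.1 CPM in naked mole-rat (SD, n = 5). Gsk3b, a kinase inhibited by AKT, was measured at 35.7 CPM in guinea pig, against 140 ± 18.3 CPM in naked mole-rat, 3.19 times below the lowest library. Sgk1, another relative of AKT, was measured at 23.2 CPM in guinea pig, against 293 CPM in naked mole-rat replicate 1 and 58.1 to 124 CPM in replicates 2 to 5. Pdpk1, the kinase that activates AKT, was measured at 336 CPM in guinea pig, against 278 CPM in naked mole-rat replicate 1 and 453 to 658 CPM in replicates 2 to 5, so guinea pig lay inside the range only through replicate 1.

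Among 3 further genes of mTORC1 and of the related complex mTORC2, 2 were higher in guinea pig and the other, Rictor, was lower. Rictor is the scaffold of mTORC2 and was measured at 91.8 CPM in guinea pig, against 216 ± 68.4 CPM in naked mole-rat (SD, n = 5). Prr5, a further mTORC2 subunit that met the minimum in guinea pig only, was measured at 34.5 CPM in guinea pig, against 8.14 ± 5.19 CPM in naked mole-rat. Rheb, the GTPase that the TSC complex switches off, was measured at 203 CPM in guinea pig, against 44.6 ± 17.2 CPM in naked mole-rat, 2.75 times above the highest library. Tbc1d7, the remaining TSC complex subunit, lay inside the range, at 87.5 CPM in guinea pig, against 71.5 ± 14.0 CPM in naked mole-rat. Of 8 genes of amino acid sensing upstream of mTORC1, 5 were higher and 1 was lower. Rraga, a Rag GTPase that places mTORC1 at the lysosome, was measured at 292 CPM in guinea pig, against 209 ± 56.5 CPM in naked mole-rat. Rragc, a partner of it that met the minimum in guinea pig only, was measured at 63.8 CPM in guinea pig, against 24.1 CPM in naked mole-rat replicate 1 and 4.20 to 9.84 CPM in replicates 2 to 5.

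Of 5 mTORC1 outputs, 1 was higher in guinea pig and 2 were lower, and 2 were higher without replicate 1. The list also holds the translation repressors Eif4ebp1 and Eif4ebp2. Eif4ebp1, which met the minimum in guinea pig only, was measured at 32.2 CPM in guinea pig, against 6.07 CPM in naked mole-rat replicate 1 and 0 to 0.643 CPM in replicates 2 to 5. Eif4ebp2 was measured at 103 CPM in guinea pig, against 281 ± 37.1 CPM in naked mole-rat (SD, n = 5). Tfeb, the lysosomal transcription factor that mTORC1 holds back, met the minimum in guinea pig only and was measured at 5.71 CPM in guinea pig, against 0.552 ± 0.586 CPM in naked mole-rat. Rps6, the ribosomal protein phosphorylated downstream of mTORC1, lay inside the range, at 130 CPM in guinea pig, against 700 CPM in naked mole-rat replicate 1 and 119 to 320 CPM in replicates 2 to 5.

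The relatives of the brakes gave mixed values. Foxo1, a FOXO paralog, was lower like Foxo3, at 82.1 CPM in guinea pig, against 298 ± 71.1 CPM in naked mole-rat (SD, n = 5). Foxo6 lay inside the range. Foxo4, which met the minimum in guinea pig only, was measured at 7.87 CPM in guinea pig, against 13.1 CPM in naked mole-rat replicate 1 and 0 to 3.99 CPM in replicates 2 to 5, so guinea pig lay above the range without replicate 1. The Foxo3 to Foxo1 count ratio was 1.68 in guinea pig, against 0.601 to 1.78 in naked mole-rat, so the species overlapped for the ratio. Of 3 genes known as FOXO targets in other tissues, 2 were lower and 1 was higher in guinea pig. Txnip, an inhibitor of thioredoxin, was measured at 18.7 CPM in guinea pig, against 1314 ± 289 CPM in naked mole-rat, 46.3 times below the lowest library. Klf2, a transcription factor best known from endothelial cells and T cells, was measured at 414 CPM in guinea pig, against 138 ± 26.4 CPM in naked mole-rat.

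Of 9 LKB1 partners and AMPK subunits, 4 were higher and 1 was lower in guinea pig, none at least 2-fold outside the range. Without replicate 1, 5 of them were higher. Prkab1, an AMPK subunit, was measured at 211 CPM in guinea pig, against 117 ± 26.1 CPM in naked mole-rat (SD, n = 5). Of 5 genes of the cell cycle around p27, 1 was higher and 1 was lower, and 3 were lower without replicate 1. Cdkn1a, which encodes the related inhibitor p21, was measured at 61.8 CPM in guinea pig, against 13.5 CPM in naked mole-rat replicate 1 and 0 to 1.85 CPM in replicates 2 to 5. Ccnd1, which encodes cyclin D1, was measured at 15.8 CPM in guinea pig, against 0.579 ± 0.585 CPM in naked mole-rat, and like Cdkn1a it met the minimum in guinea pig only. Cks1b, a cofactor in the breakdown of p27, was measured at 265 CPM in guinea pig, against 175 CPM in naked mole-rat replicate 1 and 543 to 867 CPM in replicates 2 to 5, so guinea pig lay inside the range only through replicate 1. Stroma and endothelial marker sums were also above the naked mole-rat range in guinea pig, and their part in the differences of these lists was not tested.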

How the data were processed

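Oocyte RNA was ribosome-depleted and made into directional libraries. Trimming was with Trim Galore and mapping with HISAT2, to Cavpor3.0 for guinea pig and HetGla_female_1.0 for naked mole-rat, and the authors deposited raw counts per gene from SeqMonk. The submitters' processing notes name Trim Galore 0.6.1 and HISAT2 2.1.0, whereas the methods name other versions. The strand setting, the treatment of multiply mapped reads and the annotation behind the counts are not stated explicitly, so reads of overlapping genes may be shared. The 2 species were mapped to separate genomes, and differences in gene models move levels between species.

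Samples were grouped by species and letter from their labels. CPM used column totals. A gene was called where its guinea pig CPM lay above or below all 5 naked mole-rat values, provided that guinea pig or all 5 naked mole-rat libraries held 100 counts or more. Counts by list are over genes that met this in all libraries of both species, a restriction chosen after seeing the data. List medians used a pseudocount of 0.5 CPM. The O and Y libraries were compared with edgeR 4.0.16 (TMM, filterByExpr, R 4.3.3), and DESeq2 1.42.0 was the alternative tool. Before use, the edgeR script was tested on simulated counts in which 200 genes were changed. Intervals are exact at 95%. Other scalings, filters and left-out libraries were tried.

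The members, the lists and the tests were chosen with earlier results of these data known. Named were the 9 members, list genes at least 2-fold outside the range (at most 4 per list) and the 3 genes most like Foxo3. Also named was the gene of each list with the highest mean naked mole-rat CPM. Tek, Fshr, Nr5a2, Foxo4, Foxo6 and the gene pairs were added after their values were seen. Each table held 26 entries whose symbols read as dates, which were left out of symbol matching, as were repeated symbols.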

Additional observations from a re-analysis of the deposited data

Results flagged for a closer look

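In 11 of 51 values examined over the 5 naked mole-rat libraries, 1 library stood far from the other 4, meaning that its gap to the nearest one took more than 0.71 of the whole range. Chance gives about 1 in 20 among values fixed in advance. That rate cannot be applied to these 51, since the gene pairs, the genes named for their size and the marker sums were chosen with values known. No member's own CPM met this criterion, and no cause was tested for any of the 11. Replicate 1 was the high library for the ratios of Akt1 to Foxo3 (gap of 0.809 of the range) and of Akt1 to Tsc2 (0.743). In Akt1 to Tsc2 the ratio was 0.267 in guinea pig, against 0.702 in naked mole-rat replicate 1 and 0.131 to 0.278 in the other 4. Replicate 1 was also the high library for Eif4ebp1 (0.894), Cdkn1a (0.862), Sgk1 (0.720) and Rragc (0.717), and for the summed granulosa (0.862), stroma (0.844) and immune (0.814) markers. Replicate 5 was the low library for Eif4ebp2 (0.768) and the high one for Igf1r (0.712).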

How the results depend on the processing

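Foxo3, Tsc2 and Cdkn1b stayed below and Pik3ca above the naked mole-rat range in guinea pig under 4 other scalings, with each naked mole-rat replicate left out in turn and without replicates 1 and 5 together, an alternative chosen after seeing the data. Without replicates 1 and 5 together, 2 members were higher (Stk11 joined, at a log2 difference of 0.38) and 1 was at least 2-fold lower. The count of members at least 2-fold lower, 0 as reported, was 2 when the fold was taken against the mean, and with 1 replicate left out it was 0 to 1, Foxo3 passing without replicate 1. Over all genes, the share higher in guinea pig was 46.5% without replicate 1 and 51.9% without replicates 1 and 5, beside 37.2% with all 5, and the share lower was 32.2% and 35.5%, beside 29.1%, as fewer libraries give a narrower range. The difference in balance was -0.11 without Pik3ca. No called member changed direction in the alternatives run. Among the 81 pathway genes with the count minimum met in either species, 11 changed side without replicate 1, 15 without replicates 1 and 5, and 1 to 3 with another replicate left out, and none turned from higher to lower or the reverse. The causes were not tested.

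The count of genes called between the O and Y libraries depended on the fit: it was 0 in the edgeR fit and with DESeq2 size factors, 66 with no filter beyond 1 count, 25 with at least 10 CPM in every library, 173 with all 5 libraries in the fit and 59 with DESeq2. With 1 replicate left out it was 4 to 494, the highest without replicate 4 (139 higher and 355 lower), where the lone O library was assumed to vary like the others. For Rptor, the only member called in any of these, the log2 fold change without replicate 4 was 1.71. With the replicate block on the number after the letter, 56 genes were called, none of them a member. The O1 and Y1 deviations from their letter means correlated at -0.078 over 7490 genes. With 2 libraries a letter, the deviations of O2 and Y2 mirror these. This value therefore cannot decide whether libraries with the same number share anything else.

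The guinea pig was 1 library of merged oocytes, so its values carry no spread between animals. With 2 libraries a letter, precision for a single gene is low. The lowest count of a member in any library was 176.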
